A study of Homo sapiens with 6 samples.

Results

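The enzymes that make and police the building blocks of DNA were followed in KYSE150, a long-established cell line from a human squamous cell carcinoma of the esophagus (ESCC). The 9 genes were taken by name, for what their products do: RRM1, RRM2 and RRM2B encode the subunits of ribonucleotide reductase, TYMS, TK1, DTYMK and DUT serve the route to thymidine triphosphate, DCK is a salvage kinase, and SAMHD1 destroys deoxynucleotides. These genes and the lists used below were chosen with earlier results of these data known. All 9 were among the 67140 gene identifiers of the table, and all 9 were among the 19254 that passed the filter on low counts. The control hairpin shCtrl was carried by 3 samples, and 3 carried shAC007128.1, a hairpin directed at the long noncoding RNA AC007128.1. The labels state neither a genotype nor a time after transfer for either group. The cells of both groups were grown in RPMI medium with fetal bovine serum, and the study describes its stable lines as made by lentivirus and puromycin. AC007128.1 was targeted by 1 hairpin sequence, and no source says whether the 3 samples of a group were separate cultures, so that all p-values measure the spread between these samples, which may be technical.

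DNA polymerases need 4 deoxynucleoside triphosphates. Ribonucleotide reductase makes their precursors by reducing ribonucleoside diphosphates, with a large subunit that holds the catalytic and control sites and a small subunit that carries the radical. Thymidylate needs a further methylation, and cells can also recover deoxynucleosides with kinases. The supply is known to follow the cell cycle, because several of these genes are transcribed toward S phase by E2F factors and some of the proteins are destroyed after it, and it is the target of antifolates, fluorouracil, hydroxyurea and gemcitabine.

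The promoters of the members were searched for the letters that such factors are known to bind, since several members rose together. RefSeq windows on GRCh38.p14, covering 250 bases before and 50 bases from each annotated start, were found for 8 of the 9 genes, in 13 windows. Both strands were searched. The E2F letters TTTCCCGC, TTTCGCGC, TTTGCCGC and TTTGGCGC stood in 3 of the 13 windows, 1 each for TYMS, DUT and DCK, and in 3.31% of all 35116 windows. In DCK they lay after the start, at bases 21 to 28. DUT had 4 of the 13 windows, and the E2F letters stood in only 1 of these, at a start inside the annotated gene. The stretches of TYMS (chr18:657603-657632, plus strand) and DUT (chr15:48332151-48332180, plus strand) are shown because both genes were called higher, with the E2F letters, read on either strand, in capitals.

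TYMS: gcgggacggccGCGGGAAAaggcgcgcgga

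DUT: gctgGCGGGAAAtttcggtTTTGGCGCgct

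The CCAAT box, to which NF-Y binds, stood in 6 of the 13 windows, in RRM1, RRM2, TK1, DTYMK and SAMHD1, and in 34.6% of all windows. The stretches of RRM2, TK1 and SAMHD1 are shown because none of these genes was called higher. RRM1, which was called higher, had 0 matches to the E2F letters and 1 CCAAT box. DTYMK, which was not called, had 2 CCAAT boxes. Neither is shown, so the printed stretches do not sort the members by call. Capitals mark CCAAT, or ATTGG where it is read on the other strand. The RRM2 stretches lie on the plus strand at chr2:10122610-10122634, chr2:10122640-10122664 and chr2:10122667-10122691. Those of TK1 lie on the minus strand at chr17:78187112-78187136 and chr17:78187082-78187106, and that of SAMHD1 on the minus strand at chr20:36951735-36951764. These stretches of RRM2, TK1 and SAMHD1, like that of DUT, lie inside the annotated genes.

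RRM2, first: gcgcagCCAATgggaagggtcggag

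RRM2, middle: gcacagCCAATgggaagggccgggg

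RRM2, last: ccaaagCCAATgggaagggccggga

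TK1, first: ggcgctgATTGGccccatggcggcg

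TK1, last: ggctcgtgATTGGccagcacgccgt

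SAMHD1: caggaggCCAATaggctgCCAATactcctt

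The RRM2 stretches shared an identical run of 15 bases, AGCCAATGGGAAGGG. The CHR letters TTTGAA stood in 2 of the 13 windows (RRM1 and DUT; 15.2% of all windows), and the GC box letters GGGCGG stood in 9 of the 13 (45.0% of all windows). E2F and GC box letters can share bases. Every match is a description of these windows and not of binding.

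Libraries held 55764405 to 78610457 counts, so that 3 counts, the level below which a gene was treated as undetected, equal 0.0373 to 0.0546 CPM (counts per 1000000 counts of a library, scaled with TMM factors). The hairpin's 19-base stem matches a transcript of 1 annotated gene, ENSG00000229970, which was taken as AC007128.1 through this match alone. Its counts were 69, 33 and 53 in shCtrl and 18, 37 and 15 in shAC007128.1, so the groups overlapped, and its log2 fold change of -0.77 (SE 0.51) did not pass the test (edgeR adjusted p = 0.271). With 15 to 69 counts per sample, this test cannot decide whether the hairpin lowered AC007128.1. The study measured AC007128.1 by qPCR in cells with these hairpins, and that result is not reported here. The 7 squamous markers were all expressed, with summed levels of 1175 to 1192 CPM in shCtrl and 1728 to 2249 CPM in shAC007128.1. KRT5 had the largest part in the sums, at means of 585 and 1070 CPM, and SOX2 had a mean of only 0.434 CPM in shCtrl. The fitted change was above 0 in 5 of the 7 and below 0 in 2. These 2 were DSG3, which fell from 203 to 95.3 CPM, and TP63, at a log2 fold change of -0.27 (edgeR adjusted p = 0.406). Summed levels of 5 fibroblast markers were 15.02 to 16.03 and 20.9 to 23.9 CPM, those of 4 endothelial markers 2.12 to 3.11 and 0.302 to 2.02 CPM, and those of 5 immune markers, nearly all CD68, 59.3 to 68.3 and 14.7 to 24.0 CPM. The part of these marker levels in the results was not tested.

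RRM1, TYMS, DUT and DCK rose at least 2-fold in shAC007128.1, TK1 rose less, and no member fell. Calls needed both an adjusted p (edgeR's quasi-likelihood test, Benjamini-Hochberg over all genes tested) no higher than 0.05 and a change of 2-fold or more, which is 1 on the log2 scale. By this rule 4 of the 9 members were called higher, where 5.57% of all genes tested were, and 0 were called lower, where 10.1% were. Since the members were chosen with earlier results known, these shares only describe the part. At the adjusted p alone, 5 members were higher (21.0% of all genes) and 0 were lower (19.8%). The call was lost by DUT in 9 and by DCK in 3 of 14 other fits, filters and left-out samples, so that 2 members, RRM1 and TYMS, were called without shCtrl replicate 3 or with library size only, and RRM2B passed the adjusted p as lower without shAC007128.1 replicate 3. Every shAC007128.1 sample lay above every shCtrl sample in 7 members and below in 0, against 27.0% and 28.2% of all genes, or 55.2% in either direction. The median log2 fold change of the members was 0.46 and that of all genes tested was -0.02. In these bulk samples, more cells in a state and more RNA per cell (or fewer and less) cannot be told apart, and protein was not measured.

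**Figure D1:**
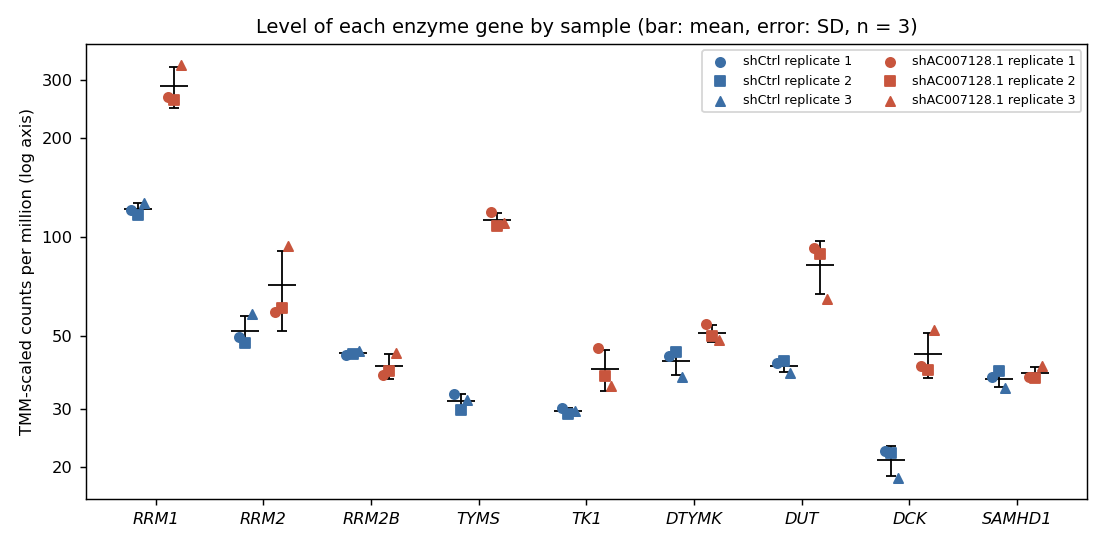
TMM-scaled CPM of the 9 enzyme genes on a log axis, with 1 point per sample, the mean as a bar and the SD (n = 3) as error; levels are not corrected for gene length. The shAC007128.1 points lie clear of the shCtrl points for RRM1, TYMS, DUT and DCK, touch the same range for RRM2B and SAMHD1, and stand just above it for RRM2 (59.3 CPM against 58.2 CPM at the nearest).

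**Figure D2:**
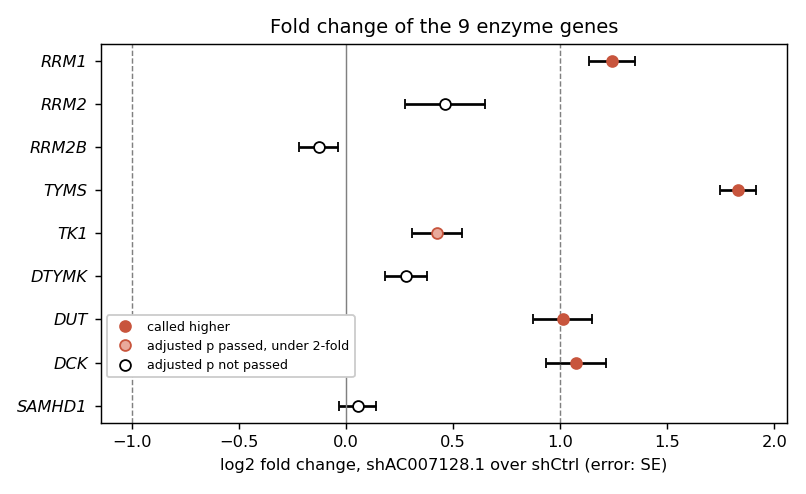
Log2 fold change of each enzyme gene, shAC007128.1 over shCtrl, with its standard error; dashed lines mark a 2-fold change. TYMS stands farthest to the right at 1.83, DUT sits at the limit with 1.01, and RRM2B is the only gene left of 0, at -0.13.

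RRM1, on chromosome 11 (4094707 to 4138932, plus strand, hg38), encodes the large subunit of ribonucleotide reductase, which is known as the target of gemcitabine diphosphate. It measured 121, 116 and 127 CPM in shCtrl replicates 1, 2 and 3 and 267, 260 and 334 CPM in shAC007128.1 replicates 1, 2 and 3. All 3 hairpin samples were above all controls. The means rose from 121 ± 5.13 to 287 ± 40.7 CPM (SD, n = 3), a 2.37-fold increase with a log2 fold change of 1.24 (SE 0.11; edgeR adjusted p = 0.000167).

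RRM2, on chromosome 2 (10120698 to 10211725, plus strand), encodes the small subunit that pairs with RRM1 in dividing cells and is quenched by hydroxyurea. It measured 49.7, 47.5 and 58.2 CPM in shCtrl and 59.3, 61.0 and 93.9 CPM in shAC007128.1. The groups did not overlap, but shAC007128.1 replicate 3 stood far above the other 2 samples of its group. The means were 51.8 ± 5.66 and 71.4 ± 19.5 CPM (SD, n = 3), with a log2 fold change of 0.46 (SE 0.19) that did not pass the test (edgeR adjusted p = 0.0897). Without shAC007128.1 replicate 3 the log2 fold change was 0.21 (adjusted p = 0.166). In the blocked fit, which pairs samples by number, it was 0.43 and passed (edgeR adjusted p = 0.0389), though the numbers were not found to pair the samples.

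RRM2B, on chromosome 8 (102204502 to 102238961, minus strand), encodes the alternative small subunit, which supplies nucleotides for repair and for mitochondrial DNA outside S phase. It measured 43.8, 44.1 and 45.0 CPM in shCtrl and 37.9, 39.2 and 44.5 CPM in shAC007128.1. Replicate 3 of shAC007128.1 reached the control range and the other 2 were below it. The means were 44.3 ± 0.601 and 40.5 ± 3.48 CPM (SD, n = 3), with a log2 fold change of -0.13 (SE 0.09; edgeR adjusted p = 0.301). Without that sample the adjusted p was 0.0384 at a log2 fold change of -0.21.

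TYMS, on chromosome 18 (657653 to 673578, plus strand), encodes thymidylate synthase, which methylates dUMP to dTMP and is inhibited by the active form of fluorouracil. It measured 33.3, 29.8 and 31.8 CPM in shCtrl and 119, 108 and 110 CPM in shAC007128.1. These groups were the farthest apart of the 9 members, and both were tight. The means rose from 31.6 ± 1.72 to 113 ± 5.79 CPM (SD, n = 3), a 3.56-fold increase with a log2 fold change of 1.83 (SE 0.08; edgeR adjusted p = 2.24e-05), the 288th highest of the 19254 genes tested. Its promoter is the stretch above with 1 set of E2F letters.

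TYMS shares 1160 of its exonic bases (47.9%) with genes on the opposite strand, 967 with ENOSF1 and 193 with TYMSOS, and whether the counting used strand is not stated. ENOSF1, which overlaps the end of TYMS, had a log2 fold change of -0.13 (SE 0.08; edgeR adjusted p = 0.226). TYMSOS, the antisense transcript at its start, had -0.55 (SE 0.24; adjusted p = 0.106). The fitted change of both overlapping genes was below 0.

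DUT, on chromosome 15 (48331011 to 48343373, plus strand), encodes the dUTPase that keeps uracil out of DNA and yields dUMP for TYMS. It measured 41.3, 41.9 and 38.7 CPM in shCtrl and 92.5, 88.4 and 64.9 CPM in shAC007128.1. All 3 hairpin samples were above the controls, with replicate 3 the lowest. The means rose from 40.6 ± 1.70 to 82.0 ± 14.9 CPM (SD, n = 3), with a log2 fold change of 1.01 (SE 0.14; edgeR adjusted p = 0.0012). The value sits at the fold limit, and the call was lost in 6 of the 8 other fits and filters, at log2 fold changes of 0.94 to 0.996, among them the replicate block (0.996), while the adjusted p passed in each. It was also lost without shCtrl replicate 3 (0.97), shAC007128.1 replicate 1 (0.91) or shAC007128.1 replicate 2 (0.96).

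DUT shares 533 exonic bases with DUT-AS1 on the opposite strand. DUT-AS1 was lower in shAC007128.1, with a log2 fold change of -1.51 (SE 0.43; edgeR adjusted p = 0.0276), from low levels of 1.43 to 4.08 CPM in shCtrl. Of the DUT pseudogenes, DUTP6 passed the filter, at a log2 fold change of -0.78 (SE 0.97; adjusted p = 0.558).

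TK1, on chromosome 17 (78174091 to 78187233, minus strand), encodes the cytosolic thymidine kinase, a classic marker of proliferation that is removed at mitotic exit. It measured 30.2, 29.0 and 29.5 CPM in shCtrl and 46.0, 37.7 and 35.2 CPM in shAC007128.1. The controls lay close together and every hairpin sample was above them. The means rose from 29.6 ± 0.607 to 39.7 ± 5.65 CPM (SD, n = 3), a 1.34-fold increase with a log2 fold change of 0.42 (SE 0.12; edgeR adjusted p = 0.0229), under the fold limit for a call. Its adjusted p was 0.0567 without the filter on low counts and 0.0661 to 0.0818 when any 1 shCtrl sample was left out. AFMID, its neighbour, had a log2 fold change of -0.32 (SE 0.17; adjusted p = 0.188).

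DTYMK, on chromosome 2 (241675747 to 241686944, minus strand), encodes thymidylate kinase, where the synthesis and salvage routes to dTTP join. It measured 43.4, 44.8 and 37.6 CPM in shCtrl and 54.3, 49.99 and 48.6 CPM in shAC007128.1. The groups did not overlap. The means were 41.9 ± 3.797 and 51.0 ± 2.96 CPM (SD, n = 3), with a log2 fold change of 0.28 (SE 0.10) that missed the threshold (edgeR adjusted p = 0.0551). It passed under DESeq2 (adjusted p = 0.0438) and without shAC007128.1 replicate 3 (edgeR adjusted p = 0.0448).

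DCK, on chromosome 4 (70992538 to 71030914, plus strand), encodes the deoxycytidine kinase that salvages deoxycytidine and deoxypurines and activates gemcitabine and cytarabine. It measured 22.3, 22.0 and 18.5 CPM in shCtrl and 40.6, 39.5 and 52.0 CPM in shAC007128.1. The lowest hairpin sample was well above the highest control. The means rose from 20.9 ± 2.15 to 44.1 ± 6.90 CPM (SD, n = 3), with a log2 fold change of 1.07 (SE 0.14; edgeR adjusted p = 0.000949). The call was lost without shCtrl replicate 3 (log2 fold change 0.99) or shAC007128.1 replicate 3 (0.93), and when only library size was used for scaling (0.999). DCK shares 199 exonic bases with MOB1B on the same strand, which itself rose with a log2 fold change of 0.58 (SE 0.10; edgeR adjusted p = 0.00414).

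SAMHD1, on chromosome 20 (36890229 to 36951893, minus strand), encodes the triphosphohydrolase that breaks deoxynucleoside triphosphates down and limits reverse transcription in resting immune cells. It measured 37.5, 39.0 and 34.8 CPM in shCtrl and 37.5, 37.4 and 40.7 CPM in shAC007128.1. The groups overlapped. The means were 37.1 ± 2.13 and 38.5 ± 1.85 CPM (SD, n = 3), with a log2 fold change of 0.05 (SE 0.09; edgeR adjusted p = 0.659) that turned to -0.02 when only library size was used for scaling. It shares 1068 exonic bases with TLDC2 on the opposite strand, which was at or below 0.604 CPM in every sample.

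Ratios of counts per kilobase between members of a sample were compared with a two-sided exact permutation test, which with 3 against 3 samples cannot go below p = 0.1 and so could not pass 0.05. The log2 ratio of the large to the degrading enzyme, RRM1 to SAMHD1, was 3.05, 2.93 and 3.22 in shCtrl and 4.19, 4.15 and 4.39 in shAC007128.1, a rise of 1.18 (SE 0.11). The ratio of the small to the large reductase subunit, RRM2 to RRM1, was -2.40, -2.40 and -2.23 in shCtrl and -3.28, -3.21 and -2.94 in shAC007128.1, a difference of -0.80 (SE 0.12). RRM1 thus gained on both its partner subunit and SAMHD1 in all 3 hairpin samples. Between the alternative small subunits, RRM2 to RRM2B was -0.58, -0.66 and -0.39 in shCtrl and -0.12, -0.13 and 0.31 in shAC007128.1, a difference of 0.57 (SE 0.17). Between the salvage kinases, TK1 to DCK was 1.18, 1.15 and 1.43 in shCtrl and 0.93, 0.68 and 0.19 in shAC007128.1, a difference of -0.65 (SE 0.23). In these 4 ratios the groups did not overlap (exact p = 0.1, adjusted p = 0.125 over the 5 ratios computed), and in the ratio not given they overlapped.

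**Figure D3:**
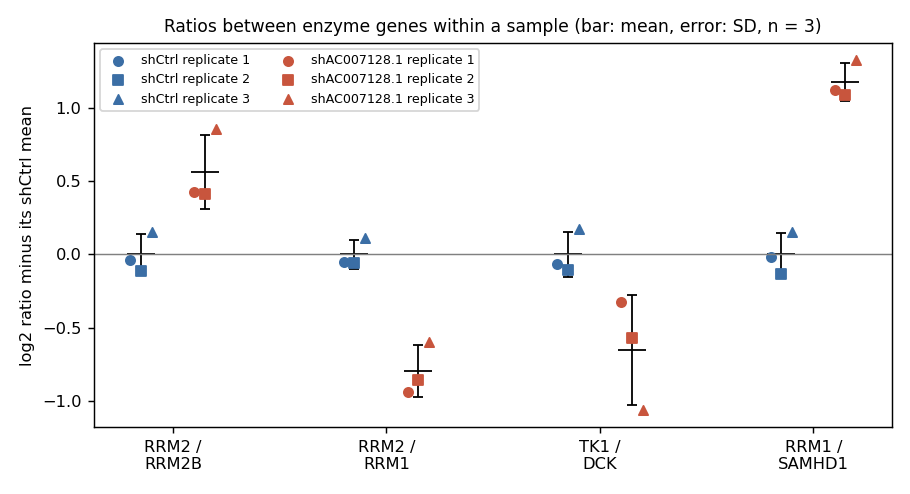
Log2 ratios of counts per kilobase between pairs of enzyme genes in each sample, each shown minus its shCtrl mean, with the mean as a bar and the SD (n = 3) as error. RRM1 to SAMHD1 and RRM2 to RRM2B lie higher in shAC007128.1, with differences of 1.18 and 0.57, and RRM2 to RRM1 and TK1 to DCK lie lower, with differences of -0.80 and -0.65.

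Per kilobase of exonic length, RRM1 had the highest level of the members in both groups, at 28.7 ± 1.21 CPM per kb in shCtrl and 67.8 ± 9.61 in shAC007128.1 (SD, n = 3), and SAMHD1 the lowest, at 3.42 ± 0.197 and 3.55 ± 0.171. In shCtrl, RRM1 was followed by DTYMK (17.5) and TK1 (16.02), whose samples overlapped, then TYMS (13.1), DUT (11.1), RRM2B (8.22), and DCK (6.75) and RRM2 (5.66), which overlapped again. In shAC007128.1, TYMS moved to the second place at 46.5 CPM per kb. DUT (22.3), TK1 (21.5) and DTYMK (21.2) then overlapped in turn, DCK stood at 14.2, and RRM2 (7.80) and RRM2B (7.52) overlapped. These places depend on the length used. With the length of the canonical transcript in place of all annotated exons, RRM2 was sixth in both groups, at 15.9 and 21.9 CPM per kb, and RRM1 (38.6) and DTYMK (39.9) overlapped in shCtrl.

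The third shAC007128.1 sample differed from the other 2 in opposite ways among the members. It was the highest of its group in 5 members, RRM1, RRM2, RRM2B, DCK and SAMHD1, and the lowest in 3, TK1, DTYMK and DUT. Its RRM2 level was 1.56 times and its DUT level 0.718 times the mean of the other 2. TYMS was at 0.970 times that mean. The proliferation marker MKI67 was also lowest in this sample, at 197 CPM against 352 and 350 CPM, whereas TOP2A was highest, at 702 CPM against 562 in both others.

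The rest of the nucleotide pathways was read from 5 lists of 67 genes, of which 66 were tested. In these lists 3 genes were called higher and 4 lower, where 5.57% and 10.1% of all genes tested were, and neither count exceeds that background. The median log2 fold change was 0.22. At the adjusted p alone 25 were higher and 11 lower, against 21.0% and 19.8% of all genes. Among 20 salvage kinases, nucleotidases and pool enzymes tested, 0 were called higher and 3 lower, with a median of 0.06, and 3 of 20 is near the 10.1% of all genes called lower. NT5M and NT5C, the mitochondrial and cytosolic nucleotidases that remove phosphate from deoxynucleotides, fell from 12.0 ± 1.35 to 2.34 ± 0.335 CPM and from 53.02 ± 1.23 to 17.5 ± 1.87 CPM (SD, n = 3). Their log2 fold changes were -2.35 (SE 0.18; edgeR adjusted p = 9.42e-05) and -1.60 (SE 0.10; adjusted p = 5.63e-05). TK2, chosen after its values were seen as the third called gene, is the mitochondrial counterpart of TK1 and fell from 15.8 ± 4.29 to 6.61 ± 0.656 CPM, while the cytosolic TK1 and DCK rose. DGUOK, the mitochondrial counterpart of DCK and also chosen after its values were seen, fell by 0.82 on the log2 scale (SE 0.09; edgeR adjusted p = 0.000428), under the fold limit.

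Among 16 folate and one-carbon genes, 2 were called higher and 1 lower (5.57% and 10.1% of all genes tested), with a median of 0.10. GGH, which trims the glutamate tails of folates, rose from 33.0 ± 1.72 to 71.8 ± 7.03 CPM (SD, n = 3), with a log2 fold change of 1.12 (SE 0.10; edgeR adjusted p = 0.000175). Of 15 purine synthesis genes, only PRPS1, which makes the ribose phosphate donor, was called, rising from 57.5 ± 6.33 to 125 ± 5.62 CPM, and the median was 0.44. None of 8 pyrimidine synthesis genes (median 0.38) and none of 7 electron donor genes of ribonucleotide reductase (median 0.40) was called. At the adjusted p alone, 5 of the 8 pyrimidine genes were higher and 0 lower, against 21.0% and 19.8% of all genes. Among the electron donors TXN and TXN2 were higher, and TXNRD1, the reductase of thioredoxin, fell from 476 ± 7.78 to 306 ± 3.68 CPM.

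Of 12 genes whose products control the member genes or proteins, 7 were called higher and 0 lower, with a median log2 fold change of 1.11. Of all genes tested, 5.57% were called higher and 10.1% lower. CCNA2, whose cyclin with CDK phosphorylates SAMHD1, rose from 44.8 ± 4.05 to 178 ± 11.1 CPM. E2F1, the factor that drives several members, rose from 20.2 ± 2.07 to 74.0 ± 10.6 CPM. CCNF, whose product marks RRM2 protein for destruction, was chosen after its values were seen and rose from 27.1 ± 2.37 to 78.0 ± 6.10 CPM (SD, n = 3).

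Of 14 S phase markers 10 were called higher and 0 lower (median 1.20). Of 11 G2/M markers 8 were called higher and 0 lower (median 1.20). Among all genes tested, the shares called were 5.57% higher and 10.1% lower. The summed level of the S phase markers was 1061 to 1113 CPM in shCtrl and 2245 to 2270 CPM in shAC007128.1, and that of the G2/M markers 908 to 951 and 2194 to 2228 CPM. MCM6, a subunit of the replicative helicase, rose by a log2 fold change of 1.95, CCNE2 by 1.77, TOP2A by 1.76 and MKI67 by 1.66. CCNE1, chosen after its values were seen as the paralogue of CCNE2, had a log2 fold change of 0.09 with overlapping groups (edgeR adjusted p = 0.735). No marker of either list was at 0. The part of cell cycle position in the rise of the members was not tested.

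**Figure D4:**
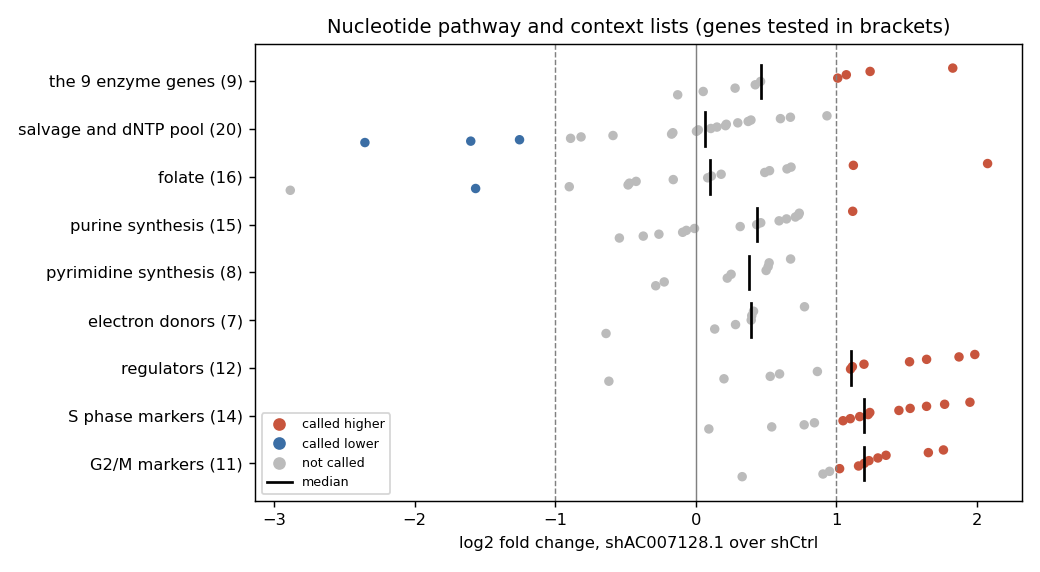
Log2 fold change, shAC007128.1 over shCtrl, of each tested gene in the 9 enzyme genes, the 5 nucleotide pathway lists and the context lists, with the median as a black line and dashed lines at a 2-fold change. Called genes lie on the right in the enzyme genes (4 of 9) and the regulators (7 of 12). The same holds for the cell cycle markers (10 of 14 and 8 of 11). Of all genes tested, 5.57% were called higher. Called genes of the salvage list lie on the left (3 of 20, near the 10.1% of all genes called lower).

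The 5 protein-coding genes whose profile was most like that of RRM2, by the Euclidean distance of log2 CPM over the 6 samples centred on its mean, were HSD17B12 (0.137), ARID4B (0.180), KCNMB2 (0.183), FOXP1 (0.202) and ITGB3BP (0.206). KCNMB2 was at a low level, with means of 0.222 CPM in shCtrl and 0.347 CPM in shAC007128.1. No other member was among the 5.

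**Figure D5:**
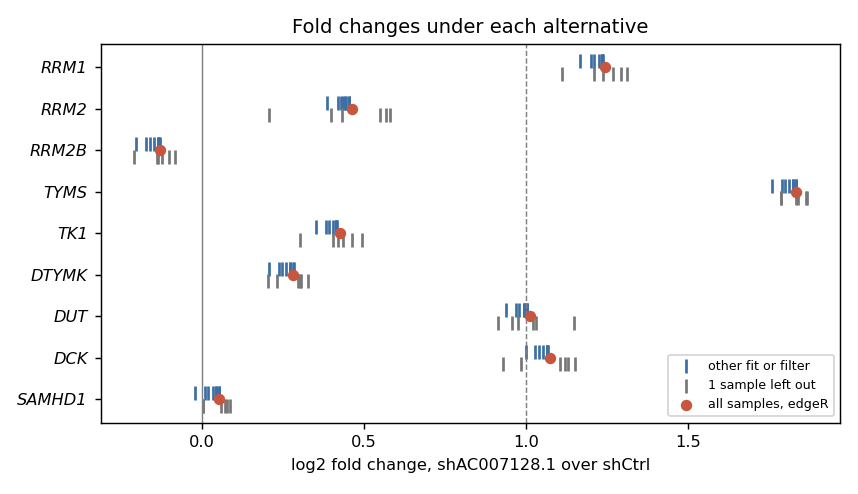
Log2 fold change of each enzyme gene with all samples (circles), under other fits, scalings and filters (blue ticks) and with 1 sample left out (grey ticks); the dashed line marks a 2-fold change. RRM1 and TYMS stay right of the line throughout, DUT (0.91 to 1.15) and DCK (0.93 to 1.15) straddle it, and RRM2 has the widest spread, from 0.21 to 0.58.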

How the data were processed

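Poly-A RNA libraries were made with the TruSeq kit. The authors removed rRNA, adapter and poor reads and mapped the remainder with TopHat to hg38. The labels' processing notes name TopHat2 2.0.6 and CASAVA 1.8. The table that the authors deposited holds estimated counts for Ensembl genes, rounded and not normalized. The counting program, annotation and use of strand are not given in the sources used here. Low values favour multiples of 4 (the first shCtrl library had 1355 genes with 4 counts, against 761 with 3 and 993 with 5), so division by 4 was an alternative. The annotation used here, GENCODE v44, holds 89.9% of the identifiers.

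Groups and replicate numbers come from the labels. The labels' treatment text gives the same hairpin for both groups and was not used. The members and lists were chosen with earlier results of these data known. From the counts, filterByExpr removed 47886 identifiers, and TMM factors scaled the rest. Tests used glmQLFit and glmQLFTest of edgeR 4.0.16, run in R 4.3.3. The SE is the log2 fold change over the root of F. The study used Cuffdiff on FPKM, which needs reads. Fits were tested on simulated counts. Depth was 65140326 to 78610457 counts per sample in shCtrl and 55764405 to 60158244 in shAC007128.1, so the groups did not overlap in depth. Their TMM factors did not overlap either, at 1.012 to 1.042 in shCtrl and 0.967 to 0.986 in shAC007128.1. Levels at 3 counts cover counting error only.

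Same-numbered samples had correlations of deviations of 0.031, -0.025 and -0.030, so the numbers do not pair the samples. Alternatives were DESeq2 1.42.0, limma-voom 3.58.1, other scalings and filters, the replicate block, each sample left out, and other gene lengths. The canonical transcript length was added after seeing the data. Named were all members, AC007128.1, per list the 2 called genes with the largest rise and the 2 with the largest fall, tested pseudogenes and overlapping genes, and the 5 genes most like RRM2. Other genes named, namely the overlapping genes found from the annotation, the cell type markers and the electron donors, were picked after their values were seen. Some results are not reported here.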

Additional observations from a re-analysis of the deposited data

How the results depend on the processing

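Of 126 member values under alternative fits, scalings, filters and left-out samples, 113 kept their direction and their side of the call, and RRM1 and TYMS did so in all. DUT lost its call at a log2 fold change of 0.99 with limma-voom, 0.94 with library size only, 0.97 without the filter, 0.98 with a minimum of 10 counts per sample, 0.996 with the replicate block and 0.99 with counts divided by 4, and ranged from 0.91 to 1.15 with 1 sample left out. DCK lost its call at 0.999 with library size only and ranged from 0.93 to 1.15 with 1 sample left out. These calls turn on the fold limit of 1, since the adjusted p passed in each case. SAMHD1 turned to -0.0197 with library size only, a scaling that moved the median of all genes from -0.02 to -0.10; without the filter that median was -0.15. Members called higher numbered 2 with library size only and 2 to 4 with 1 sample left out, the 2 arising without shCtrl replicate 3. Pathway genes called lower numbered 4 to 7 with 1 sample left out, the 7 arising without shAC007128.1 replicate 1. With no fold limit, 25 pathway genes were higher and 11 lower, and 4041 and 3820 of all genes. In shCtrl, the log2 ratio of RRM2 to RRM2B, -0.54 with exonic length, was 0.13 with coding length and 0.77 with the canonical transcript, so the order of levels within this pair depends on the length used, whereas the length cancels in the difference between groups. The replicate block changed no other call of a member, although RRM2's adjusted p then passed.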
